A study of Homo sapiens with 4 samples.

Results

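Histone genes were described in the B cell line DG75 over 4 arrays. A probe set was counted as a histone probe set when its only deposited gene symbol started with HIST1, HIST2, HIST3 or HIST4, or with H1F, H2AF or H3F followed by a letter or digit. This rule found 37 of 19937 probe sets with a single symbol, or 36 of 19088 genes, and it used no measured value. Of the 37, 25 belong to the histone gene clusters (HIST1 to HIST4, called cluster genes here) and 12 to variants outside the clusters (H1F, H2AF and H3F, called replacement variants here). The 12 stand for 11 genes, because H3F3A has 2 probe sets.

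The 4 libraries come from the clone AB7 of DG75, a human cell line established from a Burkitt's lymphoma. Per the labels the clone is Bcl6-/- and carries tetBCL6-HA, so that every library shares the loss of native BCL6 and the tetracycline-controlled, HA-tagged copy. One library was grown without doxycycline (0 h) and 1 library each was kept for 16, 48 or 96 h in doxycycline at 1 μg/ml. The title gives the search for target genes of BCL6, a repressor of transcription known from B cells of the germinal centre, as the aim. A single clone was used and no time was repeated. A library without doxycycline at a later time was not analysed here, so time in culture and time in doxycycline cannot be told apart. Values are log2 intensities of a 1-colour array, and every difference is on the log2 scale. Differences between single libraries have no replicate check.

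Histones are the proteins around which DNA is wrapped. H2A, H2B, H3 and H4 form the core of the nucleosome, and H1 binds the linker DNA between nucleosomes. Cluster genes are mostly transcribed in S phase, when new chromatin has to be packed, and their mRNAs mostly end in a stem-loop instead of a poly(A) tail. Replacement variants are made from polyadenylated mRNAs and are put into chromatin outside S phase as well. Some cluster genes, HIST1H2BK, HIST1H2BD, HIST1H2BC, HIST1H2AC, HIST1H1C and HIST2H2BE among them, are known to make polyadenylated mRNAs too. The amplification began with random hexamers, per the labels' protocols, so mRNAs without a poly(A) tail could be copied.

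The promoters of 4 histone genes are shown because these genes stand for the patterns described below, and they were picked with their values known. HIST1H2BK stood apart from all others, HIST1H2BM and HIST1H1B are an H2B and an H1 cluster gene that were lower late, and H2AFZ is the replacement variant with the most negative difference from 0 h at 96 h. The sequences are from RefSeq (GRCh38.p14) and run 5′ to 3′ from 250 bases before to 50 bases after the annotated start. HIST1H2BK (current symbol H2BC12) is at chr6:27146809-27147108 (minus strand), HIST1H2BM (H2BC14) at chr6:27814772-27815071 (plus strand), HIST1H1B (H1-5) at chr6:27867539-27867838 (minus strand) and H2AFZ (H2AZ1) at chr4:99950226-99950525 (minus strand). Capitals mark the CCAAT box, the TATAAA letters and, as the octamer, ATTTGCAT, each on either strand, and marked stretches can overlap.
HIST1H2BK: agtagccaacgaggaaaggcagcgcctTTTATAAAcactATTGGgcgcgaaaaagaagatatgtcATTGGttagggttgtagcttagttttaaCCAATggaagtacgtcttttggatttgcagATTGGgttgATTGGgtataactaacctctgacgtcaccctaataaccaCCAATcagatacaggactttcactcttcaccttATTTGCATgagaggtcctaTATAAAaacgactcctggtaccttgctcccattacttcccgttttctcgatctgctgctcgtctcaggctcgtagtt
HIST1H2BM: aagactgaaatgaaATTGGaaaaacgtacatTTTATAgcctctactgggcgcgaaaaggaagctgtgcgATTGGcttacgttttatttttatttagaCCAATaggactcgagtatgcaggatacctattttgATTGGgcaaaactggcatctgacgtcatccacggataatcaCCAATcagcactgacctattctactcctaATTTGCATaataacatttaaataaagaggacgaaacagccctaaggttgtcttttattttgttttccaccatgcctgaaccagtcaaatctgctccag
HIST1H1B: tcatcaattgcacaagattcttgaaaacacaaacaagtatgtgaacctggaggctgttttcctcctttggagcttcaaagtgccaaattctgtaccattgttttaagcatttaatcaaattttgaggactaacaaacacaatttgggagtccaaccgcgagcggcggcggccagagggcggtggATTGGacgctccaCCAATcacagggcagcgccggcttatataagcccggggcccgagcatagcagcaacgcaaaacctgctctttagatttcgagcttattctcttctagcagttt
H2AFZ: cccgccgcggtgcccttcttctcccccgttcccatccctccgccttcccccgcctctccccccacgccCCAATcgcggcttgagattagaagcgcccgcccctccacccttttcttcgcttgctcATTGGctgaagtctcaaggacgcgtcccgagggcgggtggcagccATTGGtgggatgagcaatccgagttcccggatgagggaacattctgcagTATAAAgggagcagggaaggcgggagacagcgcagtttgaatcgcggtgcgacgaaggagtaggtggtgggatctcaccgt

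Promoter entries were found for 24 of the 25 cluster genes and for 10 of the 11 replacement genes. CCAAT was present on either strand in 23 of the 24 cluster promoters and in 7 of the 10 replacement promoters, against 34.6% of 35116 RefSeq promoters of the same length. TATAAA was present in 17 of 24 and 3 of 10, against 11.5%. The octamer, a site for POU domain factors known from H2B genes, was present in 11 of 24 cluster promoters, 7 of them among the 11 H2B genes, and in 0 of 10 replacement promoters, against 1.77%. The letters TTCCTAGAA, which resemble the binding sequence of BCL6, were in none of these histone windows and in 0.373% of all. The windows of 3 divergent pairs overlap, so they are not independent: HIST1H2BM with HIST1H2AJ, HIST1H2BA with HIST1H2AA and HIST3H2BB with HIST3H2A. A match is a description of letters and not a measured site.

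BCL6, the gene of the tetracycline-controlled copy, was looked at beside the labels. Its log2 intensity was 11.10, 10.58, 10.26 and 10.50 at 0, 16, 48 and 96 h. It was therefore lower in each doxycycline library than in the library labelled 0 h. Whether doxycycline raises or lowers the controlled copy was not tested, and all times below are those of the labels. Which copy of BCL6 the probe set reads was not given. Of 9 B cell markers, 8 were among the tested genes, and 7 of these 8 lay above 0 h in all 3 doxycycline libraries, as did 31.1% of all tested genes. The exception, CD79A, part of the B cell receptor, differed by -0.38, -0.37 and -0.51 at 16, 48 and 96 h. PAX5, a transcription factor of B cells, differed by 0.88 ± 0.15 (SE) with a limma adjusted p of 0.0335, a call that was lost, at 0.0550 to 0.0935, without the expression filter, under median centring, quantile or loess scaling and when corrected for genomic span. Of 8 monocyte markers none was tested. Of 8 T cell markers, 4 were tested, 3 of them above 0 h in all 3 doxycycline libraries, with CD3E between 7.28 and 7.95, and the part of these markers in the results was not tested. Library medians of the tested genes were between 7.43 and 7.54. With 4 arrays, precision is limited by their number.

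Of the 37 histone probe sets, 24 entered the comparison across genes, 14 of cluster genes and 10 of replacement variants. Another 12 had a mean below 5.18, the 40th percentile of all genes, and the last was the H3F3A probe set with the lower mean. With limma (lmFit and eBayes), the 3 doxycycline libraries were set against the 0 h library, with 2 residual degrees of freedom. None of the 24 histone genes passed a Benjamini-Hochberg adjusted p of 0.05, where 1.31% of the 11453 tested genes did (1.23% on the high side and 0.0786% on the low side). At an unadjusted p under 0.05 there were 2, HIST1H2BK on the high side, where 10.2% of all tested genes lay, and H1FOO on the low side, where 5.11% lay (15.3% together). The 3 doxycycline libraries define the spread in this test, so a gene that moves steadily with time has a large error in it, and the single 0 h library is assumed to vary like them. The labels do not say whether separate cultures were used, so the spread behind these p-values may be technical.

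At least a 1.5-fold difference from 0 h (0.585 on the log2 scale) was reached by few histone genes. HIST1H2BK was higher by this much at 16, 48 and 96 h (at 16 h by 0.50 to 0.58, short of it, under median centring, quantile or loess scaling), as were 4.34%, 4.39% and 5.36% of all tested genes. HIST1H1B was lower by this much at 48 h (short of it, at -0.56 and -0.54, with quantile scaling and when corrected for genomic span), as were 1.55% of all tested genes. No tested histone gene was lower by this much at 16 h or at 96 h (except H1FOO at 16 h, at -0.59, under median centring), where 0.690% and 3.52% of all tested genes were. The other 22 tested histone genes stayed within this distance of 0 h at each time in the values as deposited.

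**Figure D1:**
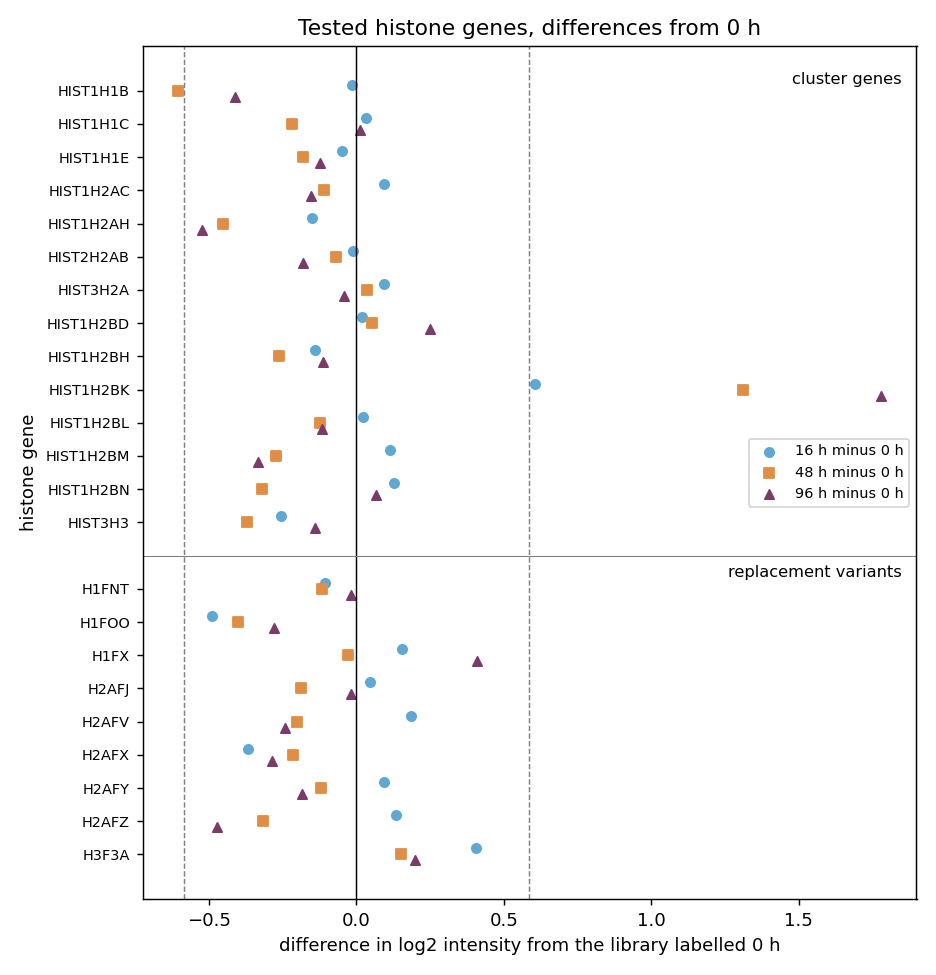
Differences in log2 intensity from the library labelled 0 h for 23 of the 24 tested histone genes, with cluster genes above and replacement variants below. Circles, squares and triangles stand for the libraries labelled 16, 48 and 96 h, and dashed lines for 1.5-fold. HIST1H2BK lies to the right at 0.61, 1.31 and 1.78, and the other genes lie between -0.61 and 0.41.

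Cluster genes and replacement variants had medians close to each other at each time. The 14 tested cluster genes had a median difference from 0 h of 0.02, -0.20 and -0.12 at 16, 48 and 96 h. The 10 replacement variants had 0.07, -0.20 and -0.15, against 0.02, -0.01 and -0.03 over all tested genes. At 16 h the sign of both histone medians depended on the scaling, with -0.08 and -0.03 under median centring, a rescaling that moved the median of all tested genes to -0.08. At 48 and 96 h both medians stayed negative with median centring, with quantile or loess scaling and when corrected for genomic span. With the filter at the 60th percentile the medians lay further apart at 48 h. The replacement variants then had -0.12 at 48 h and -0.18 at 96 h, and the cluster genes -0.22 and -0.12. The library labelled 48 h was the lowest of the 4 for 7 of 14 cluster genes and 4 of 10 replacement variants, where 16.4% of all tested genes had it lowest. Comparing 48 h with 16 h directly, which leaves out the 0 h library, 12 of 14 and 8 of 10 were lower at 48 h, and so were 55.5% of all tested genes. Both counts at 48 h were made after the values were seen.

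HIST1H2BK, which encodes an H2B protein, was the one histone gene with a large difference. Its log2 intensity was 6.80, 7.40, 8.11 and 8.58 at 0, 16, 48 and 96 h. The values stood in the order of the labelled times, and all 3 doxycycline libraries lay above the 0 h library, as they did for 31.1% of all tested genes. HIST1H2BK was 1.52-fold higher at 16 h, 2.48-fold at 48 h and 3.43-fold at 96 h than at 0 h, and 2.26-fold higher at 96 h than at 16 h, a pair in which 1.27% of all tested genes were at least 1.5-fold higher. Of the 11453 tested genes, 26 had a larger difference at 96 h against 0 h. The doxycycline libraries averaged 8.03 ± 0.59 (SD, n = 3) against 6.80 in the single 0 h library, a difference of 1.23 ± 0.36 (SE). The unadjusted p was 0.00829 in limma and the Benjamini-Hochberg adjusted p 0.151, which misses the threshold. In the second deposited table the differences were 0.54, 1.19 and 1.64 at the 3 times. Without the library labelled 16 h or 48 h the limma adjusted p was 0.0274 or 0.0109, and without that labelled 96 h it was 0.0639. These 3 fits have 1 residual degree of freedom, and each called more of all tested genes than the fit with all libraries. With all libraries the adjusted p was 0.146 to 0.256 over the other alternatives.

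A second probe set that names HIST1H2BK together with H2BFS, and therefore is no member, did not show this. Its log2 intensity was 11.37, 11.38, 11.24 and 11.14 at 0, 16, 48 and 96 h, so it was lower by 0.24 at 96 h. The 2 probe sets that carry the name HIST1H2BK thus lay on opposite sides of 0 h at 48 and 96 h. Which part of the transcript each reads was not given. In RefSeq, HIST1H2BK has a genomic span of 8566 bases and HIST1H2BD one of 13229, while the other 23 cluster genes of the 25 span 386 to 2224 bases. HIST1H2BD, another H2B gene with a known polyadenylated form, had 6.57, 6.59, 6.62 and 6.82 at 0, 16, 48 and 96 h. HIST1H2BK and HIST1H2BD were the 2 tested histone genes of 24 whose values stood in strictly increasing order of the labelled times, an order found in 6.80% of all tested genes. This order and its pairing with genomic span were noticed after the values were seen.

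**Figure D2:**
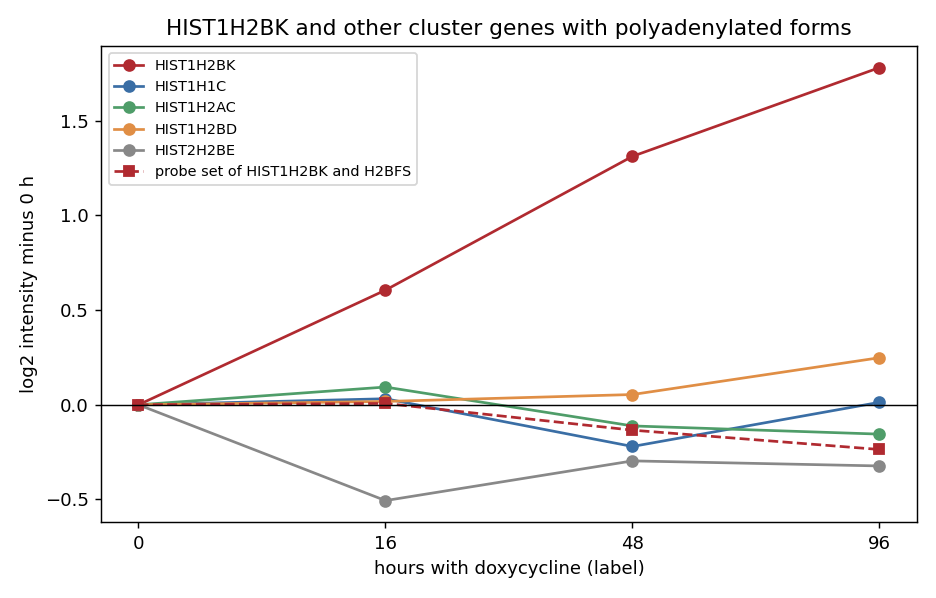
Log2 intensity minus that at 0 h for HIST1H2BK, for 4 other cluster genes known to also make polyadenylated mRNA, and for the probe set named after both HIST1H2BK and H2BFS (dashed), against the labelled hours, drawn evenly spaced. HIST1H2BK reaches 1.78 at 96 h, the shared probe set lies at -0.24, and HIST2H2BE, which is below the expression filter, lies at -0.32.

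The other genes on the list of cluster genes with polyadenylated forms had smaller differences than HIST1H2BK, with HIST1H2BD at 0.25 at 96 h. Of 6 listed, 4 were tested, HIST1H2BK included, with a median difference of 0.06, -0.03 and 0.13 at 16, 48 and 96 h. HIST1H1C, a linker histone, had 7.89, 7.92, 7.67 and 7.90 at 0, 16, 48 and 96 h. HIST1H2AC, an H2A gene, had 6.96, 7.05, 6.85 and 6.80. In both genes the doxycycline libraries lay on either side of the 0 h library. HIST2H2BE was dim, with 4.72 at 0 h and 4.21 to 4.42 in the doxycycline libraries. HIST1H2BC had no probe set of its own. The shared probe set named first for it had 8.02, 8.08, 8.01 and 8.02. Other shared probe sets that also name it differed from 0 h by -0.44 to 0.14 at 48 h.

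Among linker histones, HIST1H1B was lower late. HIST1H1B (H1-5) is an H1 gene typical of dividing cells. Its log2 intensity was 10.55, 10.53, 9.94 and 10.14 at 0, 16, 48 and 96 h. The libraries labelled 48 and 96 h lay apart from those labelled 0 and 16 h, by -0.61 and -0.41 against 0 h. The mean difference over the 3 doxycycline libraries was -0.34 ± 0.22 (SE), with a limma adjusted p of 0.509. HIST1H1E (H1-4), another H1 cluster gene, had 12.39, 12.34, 12.21 and 12.27 at 0, 16, 48 and 96 h. All 3 tested H1 cluster genes, HIST1H1B, HIST1H1C and HIST1H1E, had their lowest value at 48 h, as did 16.4% of all tested genes. Among replacement H1 genes, H1FX and H1FNT were also lowest at 48 h, and H1FOO was not.

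Replacement linker histones went different ways. H1FX (H1-10) was 6.97, 7.12, 6.94 and 7.38 at 0, 16, 48 and 96 h, and the 96 h value was the highest of the 4. H1FOO, the linker histone of oocytes, had 5.97, 5.48, 5.57 and 5.69, a mean difference of -0.39 ± 0.15 (SE) with an unadjusted p of 0.0294 and a limma adjusted p of 0.259. H1FNT, a linker histone of the testis, had 6.89, 6.78, 6.77 and 6.87. At 96 h against 16 h all 4 replacement H1 genes were higher, by 0.09 to 0.25, while 0 of 3 H1 cluster genes were (1 to 2 of 3 under median centring, quantile or loess scaling). Of all tested genes, 59.1% were lower at 96 h than at 16 h, but 480 of the 771 tested non-histone genes of at most 3 kb were higher. When corrected for genomic span, all 4 replacement H1 genes were higher at 96 h than at 16 h, and 0 of 3 H1 cluster genes. Leaving out H1FNT and H1FOO, whose known sites are in germ cells, moved the median of the replacement variants at 96 h against 16 h to -0.14 from the 0.01 of all 10.

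In the H2A family the variants of H2A.Z were lower late. H2A.Z is placed around transcription start sites and is encoded by H2AFZ and H2AFV. H2AFZ had 12.02, 12.15, 11.70 and 11.54 at 0, 16, 48 and 96 h. H2AFZ was 1.52 times lower at 96 h than at 16 h, the only tested histone gene lower by at least 1.5-fold in that pair, where 1.88% of all tested genes were, and 1.39 times lower at 96 h than at 0 h. Under median centring, quantile and loess scaling the difference between 96 h and 16 h was -0.53, -0.56 and -0.54, short of 1.5-fold. H2AFV had 10.15, 10.33, 9.94 and 9.90 at the same times. Both H2A.Z genes were highest at 16 h and lowest at 96 h, except that 48 h was lowest for H2AFV under median centring and when corrected for genomic span. In the values as deposited, H2AFY, HIST1H2AC and HIST3H2A were also highest at 16 h and lowest at 96 h. The share of all tested genes with these extremes was not counted. Their mean differences from 0 h in limma were -0.22 ± 0.22 and -0.09 ± 0.19 (SE), with adjusted p of 0.699 and 0.880.

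H2AFX, which encodes the variant phosphorylated at DNA breaks and has both a stem-loop and a polyadenylated mRNA, had 8.66, 8.29, 8.44 and 8.37 at 0, 16, 48 and 96 h. All 3 doxycycline libraries lay below 0 h, as for 31.1% of all tested genes, by -0.29 ± 0.14 (SE) on average with a limma adjusted p of 0.386. H2AFY, which encodes macroH2A1, a variant with a large extra domain, had 9.62, 9.71, 9.50 and 9.43. H2AFJ, a variant known from senescent cells, had 6.18, 6.23, 5.99 and 6.16. Of the 5 tested replacement H2A genes, 4 were higher at 16 h than at 0 h and 0 were higher at 48 or at 96 h. With median centring 2 of 5 were higher at 16 h, and with loess scaling or span correction 1 was higher at 96 h. Of all tested genes, 46.0%, 51.3% and 54.8% were below 0 h at 16, 48 and 96 h.

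The 4 tested H2A cluster genes had smaller differences with one exception. HIST1H2AH had 6.996, 6.85, 6.54 and 6.47 at 0, 16, 48 and 96 h, each below the one before. It was 1.44 times lower at 96 h than at 0 h, the lowest 96 h difference of the 24 histone genes at -0.52, and -0.38 ± 0.18 (SE) on average with a limma adjusted p of 0.363. HIST3H2A had 6.35, 6.45, 6.39 and 6.31, and HIST2H2AB 5.32, 5.31, 5.25 and 5.14.

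**Figure D3:**
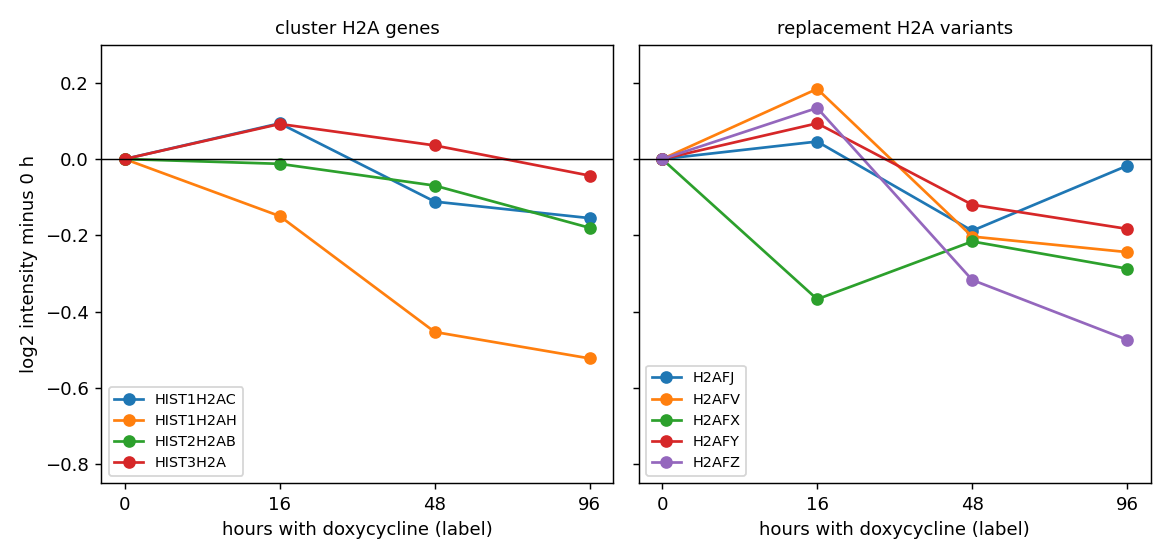
Log2 intensity minus that at 0 h for the tested H2A cluster genes (left) and replacement H2A variants (right) against the labelled hours, drawn evenly spaced. H2AFZ and H2AFV are above 0 at 16 h and below it at 48 and 96 h, H2AFX is below 0 in all 3 doxycycline libraries, and HIST1H2AH is the lowest cluster gene at 48 and 96 h.

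Among the other H2B genes, HIST1H2BM resembled H2AFZ in its order of values. HIST1H2BM had 12.71, 12.82, 12.43 and 12.37 at 0, 16, 48 and 96 h, a difference of -0.45 between 96 h and 16 h. HIST1H2BH had 7.43, 7.29, 7.17 and 7.32, below 0 h in all 3 doxycycline libraries. HIST1H2BN had 6.50, 6.62, 6.17 and 6.56, with a low at 48 h that was gone at 96 h. HIST1H2BL had 6.01, 6.03, 5.89 and 5.89. Of the 6 tested H2B cluster genes, 5 were higher at 16 h, 2 at 48 h and 3 at 96 h than at 0 h, while median centring gave 3, 1 and 3. Of the 11453 tested genes, 6175, 5568 and 5179 were higher than at 0 h at these times in the values as deposited.

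Few H3 genes have a probe set of their own. H3F3A, 1 of the genes of the replacement variant H3.3, had 10.90, 11.31, 11.05 and 11.10 at 0, 16, 48 and 96 h in the tested probe set. The other H3F3A probe set had 10.66, 11.02, 10.81 and 10.84. In both, all 3 doxycycline libraries lay above 0 h and the 16 h library was the highest. The average difference of the tested probe set was 0.25 ± 0.16 (SE) with a limma adjusted p of 0.498. Probe sets named after both H3F3A and H3F3B, the other H3.3 gene, are no members, and 1 of 3 went the other way. That one, named first for H3F3B, had 10.64, 10.52, 10.36 and 10.26. The others differed from 0 h by 0.25, 0.09 and 0.15 and by 0.265, 0.10 and 0.18 at 16, 48 and 96 h. HIST3H3, an H3 gene of the testis just above the filter, had 5.38, 5.12, 5.01 and 5.24. HIST1H4G was the sole H4 gene with its own probe set and was dim, at 4.04 to 4.21.

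The 12 probe sets below the filter, 11 of cluster genes and that of H2AFY2 (macroH2A2), differed from 0 h by -0.51 to 0.19 at 16 h, -0.30 to 0.26 at 48 h and -0.32 to 0.30 at 96 h. They include HIST1H1T, HIST1H2BA and HIST1H2AA, which are known from the testis, and HIST1H1A, HIST1H1D, HIST1H2BB, HIST1H2BJ, HIST1H2AJ, HIST3H2BB, HIST2H2BE and HIST1H4G.

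Most H3 and H4 cluster genes are near-identical copies and share their probe sets, so they carry several symbols and are outside the rule. There were 55 such histone probe sets, 8 of which had the same values as another one, and 35 of those named first for a cluster gene had a mean above the filter. These 35 had a median difference from 0 h of -0.07, -0.29 and -0.19 at 16, 48 and 96 h, and 33 of them were lower at 48 h, where 51.3% of all tested genes were. Those named first for H3 genes numbered 10, with medians of -0.19, -0.31 and -0.20, and those named first for H4 genes 12, with 0.01, -0.34 and -0.17. Of the 10 H3 probe sets, 2 were at least 1.5-fold lower at 96 h, where 3.52% of all tested genes were. That led by HIST1H3J had 9.57, 9.49, 8.90 and 8.98 at 0, 16, 48 and 96 h, and that led by HIST1H3A had 8.55, 8.37, 8.08 and 7.90. At 96 h 9 of the 10 were below 0 h, and that led by HIST1H3H was not, with 7.83, 7.99, 7.53 and 7.93. Single genes cannot be read from these values. These probe sets were added after the values were seen.

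Genes that make or handle histone mRNA had median differences from 0 h that were near 0. Of 17 tested genes, none passed the limma threshold, and the median differences were 0.03, -0.08 and -0.08 at 16, 48 and 96 h. At 96 h against 16 h their median was -0.17, with 2 of the 17 higher, against -0.06 over all tested genes. SLBP, which binds the stem-loop of cluster histone mRNAs, had 9.67, 9.25, 8.96 and 9.12 at 0, 16, 48 and 96 h, a mean difference of -0.57 ± 0.16 (SE) with a limma adjusted p of 0.139. UPF1, a helicase needed for the decay of histone mRNA, had a mean difference of -0.52 and CCNE2, a cyclin of the G1/S transition, one of -0.51. At 48 and 96 h, 2 and 3 of the 17 were at least 1.5-fold lower, where 1.55% and 3.52% of all tested genes were, and those at 96 h were UPF1, CCNE2 and ERI1, an exonuclease that trims histone mRNA ends, at -0.71, -0.80 and -0.61. NPAT, the coactivator of cluster histone genes, had 8.13, 8.33, 8.23 and 8.31.

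Histone chaperones, which carry histones to chromatin, had medians of 0.04, -0.17 and -0.24 over 26 tested genes, with no gene past the limma threshold. CENPA, the centromeric H3 variant that was listed with its chaperone, was lower by 0.36, 0.59 and 0.66 at 16, 48 and 96 h. CHAF1A, the large subunit of the chaperone that deposits new H3 and H4 at replication forks, was lower by 0.38, 0.62 and 0.58. HJURP, the chaperone of CENPA, was lower by 0.26, 0.62 and 0.63. ASF1A, a chaperone of H3 and H4, had 8.12 at 0 h and 8.88 at 16 h, but 8.10 at 48 h and 8.39 at 96 h.

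Genes of S phase and DNA replication had lower medians than the histone genes at the later times. Over 29 tested genes the median difference was -0.15, -0.51 and -0.56 at 16, 48 and 96 h, against -0.20 and -0.12 at 48 and 96 h for the cluster genes. At 48 and 96 h, 9 and 12 members were at least 1.5-fold lower, where 1.55% and 3.52% of all tested genes were. All 29 lay below 0 h at both times, where 51.3% and 54.8% of all tested genes did. None passed the limma threshold. CDC6, which loads the replicative helicase, had 10.19, 9.67, 9.19 and 9.16. ORC1, a subunit of the origin recognition complex, differed by -0.64 and MCM10, a replication factor, by -0.55 on average. In the pair that leaves out 0 h, 96 h against 16 h, the medians were -0.38 for these genes, -0.10 for cluster genes, 0.01 for replacement variants and -0.06 for all tested genes. The sign of the replacement median changed with the processing, and the difference between the lists was not tested.

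**Figure D4:**
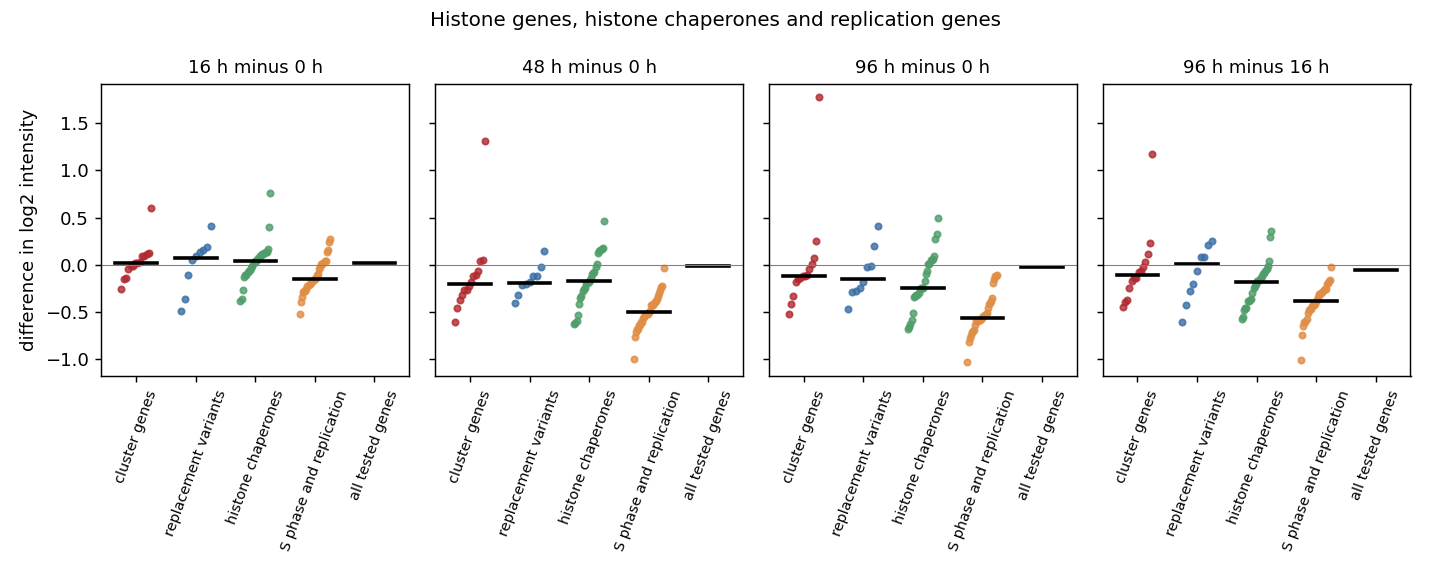
Differences in log2 intensity for tested cluster genes, replacement variants, histone chaperones and S phase genes in 4 pairs of libraries. Each point is a gene (9 of the 10 replacement variants are drawn), and black bars give medians over all tested genes of a list, with that of all 11453 tested genes at the right of each panel. Bars of the S phase genes are at -0.51 and -0.56 at 48 and 96 h against 0 h, while those of both histone classes lie between -0.20 and -0.12.

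Most cluster genes are short, and differences moved with genomic span on these arrays. Across tested genes, which are not independent replicates, the Spearman correlation of the difference with span was 0.28, 0.21 and 0.11 at 16, 48 and 96 h against 0 h. The 771 tested non-histone genes of at most 3 kb had medians of -0.08, -0.06 and -0.03 at these times, against 0.02, -0.20 and -0.12 for the cluster genes. After a correction for span the cluster genes had medians of 0.11, -0.14 and -0.06 and HIST1H2BK a difference of 1.84 at 96 h. Without the correction, at 96 h against 16 h, the Spearman correlation of the difference with span was -0.15. In that pair the short genes had a median of 0.07, against -0.10 for the cluster genes.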

How the data were processed

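The authors deposited log2 intensity values of the 4 libraries in 2 tables. The scale was read from the values. How the intensities were normalized, background-corrected and summarised was not given in the sources used here. Per the labels' protocols, total RNA was copied with random hexamers, amplified, turned into labelled sense-strand cDNA and hybridised to 1-colour arrays. The first table, with 33297 probe sets, gave the main values, and the second, with 28869, gave symbols and an alternative. Of 19937 probe sets with 1 symbol, 17052 were matched to the RefSeq gene table (GRCh38.p14) by accession, 810 by current symbol and 834 by older symbol. Of the histone probe sets, 35 matched by accession and 2 by older symbol. For each of 19088 genes the probe set with the highest mean was taken, and limma 3.58.1 in R 4.3.3 (two-sided) was run on the 11453 genes whose mean reached the 40th percentile. The fit was tested on simulated data drawn with each gene's spread in 2 ways. With the raw residual spread, which was tried first, it missed nearly all of the smallest changes and some of every larger size, short of the recovery asked for. With limma's moderated spread, which was added after that shortfall, it recovered the larger changes and missed many of the smallest, with more false calls. The fit itself was the same in both, and a gene that misses the threshold here may still have changed. Histones with near-identical copies may cross-hybridise.

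Every tested histone gene is named except 1, which is not reported here and stays in the counts and medians. From the other lists, BCL6, genes past the limma threshold and the 3 with the largest absolute mean difference were to be named, and a few more are given as examples. The members and lists were chosen with earlier results of these data known. RefSeq proteins were not used here.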

Additional observations from a re-analysis of the deposited data

How the results depend on the processing

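The values above kept their direction or their number under most alternatives. Limma called none of the histone genes under median centring, quantile scaling, loess scaling, no filter, a filter at the 60th percentile, the second table, the mean of probe sets, each probe set on its own and the correction for genomic span, with 49, 56, 86, 54, 121, 110, 149, 148 and 36 calls over all genes in place of 150. With 1 doxycycline library left out, HIST1H2BK was the only histone gene called in any fit. Each of these fits also called more of all tested genes than the main fit did. The cluster gene at least 1.5-fold higher at 16 h, HIST1H2BK, gave a count of 0 in place of 1 under median centring, quantile scaling, loess scaling, the second table and a 2-fold threshold. The cluster gene at least 1.5-fold lower at 48 h, HIST1H1B, gave 0 under quantile scaling, span correction and a 2-fold threshold. The count was 2 at 48 h, at 96 h and at 96 h against 16 h with a 1.3-fold threshold. With the probe sets of several symbols, chosen after seeing the data, the 1.5-fold count was 2 at 48 h and 2 at 96 h, among 49. At these times 177 and 403 of the 11453 tested genes were lower by this much. The median of replacement variants at 96 h against 16 h, 0.01, was -0.14 without H1FNT and H1FOO, chosen after seeing the data, and -0.21 with a filter at the 60th percentile. That median was -0.06 with each probe set on its own and -0.04 with span correction. It stayed above 0 under the other alternatives, up to 0.09 with median centring. The cause of these shifts was not tested. Leaving out genes with identical proteins was not run. No paired analysis was possible because each group holds 1 library. Signal over background is not given for these arrays.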
